A study of Mus musculus with 2 samples.

Results

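The Myc and Max network is a small family of transcription factors, and 10 of its genes were followed here in poly-A RNA of Drosha knockout mouse embryonic stem (ES) cells. They are the Myc paralogs Myc, Mycn and Mycl, their obligate partner Max, and the other proteins that pair with Max, namely Mga, Mnt, Mxi1, Mxd1, Mxd3 and Mxd4. The genes were chosen by symbol through GENCODE mouse release M21, and all 10 matched a row among the 43629 genes of the count files. Every library came from the same group: 129/Ola ES cells, pluripotent cells taken from the blastocyst, with a Drosha knockout made by a paired CRISPR/Cas9 approach, untreated, in serum plus LIF, at passage 7. The 2 libraries are called A and B. Their titles number the cells 1 and 2, while their source names are the same, and whether they came from separate cultures is left unsaid in the labels, so a difference between them may be technical or lie between lines. Cells of other genotypes were not analysed here, so the levels below describe the knockout cells and show no change caused by the loss of Drosha.

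Library A held 29264632 gene counts and library B 42322129. Drosha, the nuclear ribonuclease that frees microRNA hairpins from their primary transcripts, had 4865 reads in A and 7023 in B, and a count over the whole gene does not check the knockout label. All 6 ES cell markers that were listed (Pou5f1, Sox2, Nanog, Zfp42, Esrrb and Klf4) had a mean over both libraries of 135 TPM (reads per exon length, scaled to the same total in each library) or above. Of 9 fibroblast markers, 3 reached 1 CPM (reads scaled by library size) in both libraries, and none was at 0.

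All the proteins of the network carry a basic helix-loop-helix leucine zipper, and they bind DNA as dimers with Max at E-boxes, of which CACGTG is the canonical form. Dimers of Myc with Max activate transcription of genes for ribosome production, metabolism and the cell cycle. Dimers of Mxd proteins or Mnt with Max recruit the Sin3 corepressor with its histone deacetylases to the same kind of site. Mga also carries a T-box and joins Max in a variant Polycomb complex, PRC1.6, which is reported to hold germline genes silent in ES cells. Myc and Mycn support self-renewal of mouse ES cells and can stand in for each other in part.

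Because cells without Drosha cannot make most microRNAs, the microRNA families of interest in ES cells are shown first, with the seed (bases 2 to 8) in capitals. The let-7 family promotes differentiation, and the miR-294 family is the main one of ES cells. MicroRNA miR-17 itself is made from a host transcript that Myc is reported to activate, and miR-34 is induced by p53. Sequences are those of RefSeq on GRCm38.p6.
let-7a-5p: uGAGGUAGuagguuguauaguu
miR-294-3p: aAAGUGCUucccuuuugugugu
miR-17-5p: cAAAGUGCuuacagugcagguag
miR-34a-5p: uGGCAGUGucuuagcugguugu
The seed of miR-294-3p is shared by 5 mature microRNAs of the RefSeq table, among them miR-291a-3p, miR-295-3p, miR-302b-3p and miR-302d-3p. None of the mature microRNAs was measured in these libraries.

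Matches to the seeds were counted in the longest annotated 3′ UTR of each gene, on the transcript strand only. The letters sought were CTACCTC for let-7, AGCACTT for miR-294, GCACTTT for miR-17 and CACTGCC for miR-34. The miR-294 letters were present in 6 of the 10 network genes (Mycn, Mga, Mnt, Mxi1, Mxd1 and Mxd3), against 14.7% of 20999 protein-coding genes. The miR-17 letters were present in 4 (Mycn, Mga, Mnt and Mxi1) against 11.8%, and the miR-34 letters in 4 (Mycn, Mnt, Mxi1 and Mxd4) against 14.3%. The let-7 letters were found in 1, Mxd1, against 9.03%. The 3′ UTRs of the network ran from 466 bases in Myc to 4616 in Mga, and 7 of 10 were longer than the median over all genes, 961 bases. Those of Myc, Mxd3 and Mycn were shorter. Per 1000 bases of 3′ UTR, which allows for length, the network held 0.386 miR-294 matches against 0.121 over all genes. The same density was 0.172 against 0.0931 for miR-17, 0.172 against 0.117 for miR-34 and 0.0429 against 0.0700 for let-7. No match to any of these seeds was found in the 3′ UTRs of Myc, Mycl and Max. A match is a description of the letters and does not show that a site is used.

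The following stretches show the matches of Mycn, the most abundant network gene, and the stretch of Mga in which letters of both miR-294 and miR-17 lie, with the matching letters in capitals and positions on GRCm38. In both genes these letters overlap by 6 bases, so that the same stretch counts for both families. Mga has 3 miR-294 matches, at bases 485, 1787 and 4135 of its 3′ UTR, of which the last is shown.
Mycn, miR-294, chr12:12936132-12936154, minus strand: caccttagAGCACTTtgaaatac
Mycn, miR-17, chr12:12936131-12936153, minus strand: accttagaGCACTTTgaaatacc
Mycn, miR-34, chr12:12936971-12936993, minus strand: cggacagtCACTGCCactttgca
Mga, miR-294, chr2:119969092-119969114, plus strand: ttgaagaaAGCACTTttaagggt
Mga, miR-17, chr2:119969093-119969115, plus strand: tgaagaaaGCACTTTtaagggtc
The Mycn match to miR-34 begins at base 21 of a 3′ UTR of 913 bases, and that to miR-294 at base 860.

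The network's own E-box was sought in RefSeq promoter windows that run from 250 bases before to 50 bases after an annotated start. CACGTG reads the same on both strands. Windows matched 9 of the 10 genes, all but Myc, and 3 of the 9 held the motif, against 8.09% of 27025 genes with a window. The 3 are shown with the E-box in capitals, on the strand of the gene and on GRCm38.p6.
Max, chr12:76962234-76962263, minus strand: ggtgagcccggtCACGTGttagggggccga
Mnt, chr11:74830789-74830818, plus strand: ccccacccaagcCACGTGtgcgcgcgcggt
Mxd4, chr5:34187912-34187941, minus strand: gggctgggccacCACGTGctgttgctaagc
Counted from the annotated start, the motif begins at -3 in Max, at -123 in Mnt and at -219 in Mxd4. As above, the letters say nothing of whether a factor binds there.

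Every network gene was detected. All 10 reached 1 CPM in both libraries, where 72.8% of the 17124 protein-coding genes with a read and 56.2% of all genes with a read did so. The smallest count of a network gene was 192 reads, that of Mxd4 in library A. Levels of different genes are compared per length, as TPM from the union of each gene's exons, and values are the mean ± SD of both libraries (n = 2).

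Among the activating paralogs Mycn was the highest. Mycn (ENSMUSG00000037169, chromosome 12, 12936093 to 12941914) had 4767 reads and 132 TPM in A, and 6527 reads and 124 TPM in B. Its mean of 128 ± 5.64 TPM lay at the 94.2nd percentile of protein-coding genes with a read. Myc (ENSMUSG00000022346, chromosome 15, 61985391 to 61990374), the founding member, had 1476 reads and 49.7 TPM in A and 2180 reads and 50.4 TPM in B, or 50.1 ± 0.482 TPM, at the 83.5th percentile. The libraries were close for both genes, and the ranges of Mycn and Myc did not overlap. Mycl (ENSMUSG00000028654, chromosome 4, 122995652 to 123002485), a paralog with weaker transforming activity, had 683 reads and 15.5 TPM in A and 858 reads and 13.3 TPM in B, or 14.4 ± 1.51 TPM. That was still above the median of protein-coding genes, at the 60.9th percentile.

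Per length, the ratio of Myc to Mycn was 0.375 in A (95% exact binomial interval 0.354 to 0.398) and 0.405 in B (0.386 to 0.425). The intervals overlap, and both lie below 1. Of the summed TPM of the 3 Myc paralogs, Mycn held 67.0% in A and 66.1% in B.

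Max, without which none of the Myc proteins binds DNA well, was second in the network. Max (ENSMUSG00000059436, chromosome 12, 76937269 to 76962201) had 2702 reads and 68.7 TPM in A and 4038 reads and 70.5 TPM in B, or 69.6 ± 1.25 TPM. Set against its partners, Max RNA was the smaller amount: the 9 partner genes summed to 305 TPM in A and 294 in B, so that the ratio of Max to its partners was 0.225 and 0.240. This is a ratio of RNA levels and not of proteins. It depends on the length used, because the union of Max exons (3598 bases) is much longer than its longest transcript (1942 bases). With the longest transcript as length, Max stood at 105 TPM and the ratio at 0.360.

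**Figure D1:**
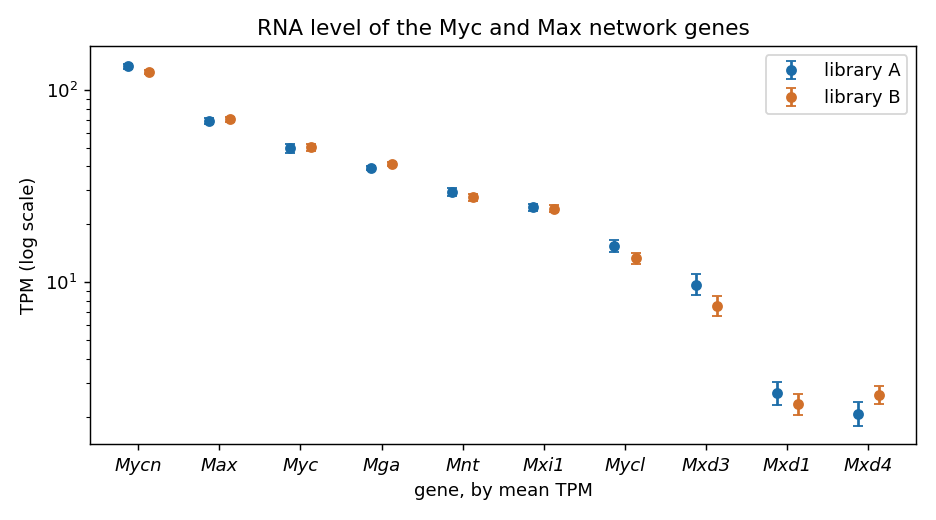
RNA level of each network gene in library A (blue) and library B (orange), as TPM on a log axis, with 95% exact Poisson intervals of the reads. Mycn is highest, at 132 and 124 TPM, and Mxd1 and Mxd4 are lowest, at 2.07 to 2.65 TPM.

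Of the partners that do not activate, Mga was the most abundant, and Mnt came next per union exon length but not per longest transcript. Mga (ENSMUSG00000033943, chromosome 2, 119897228 to 119969581), the partner of Max in PRC1.6, drew more reads than any other network gene, 6598 in A and 10062 in B. Its exons sum to 15340 bases, and per length it came after Mycn, Max and Myc, at 39.4 TPM in A and 41.2 in B, or 40.3 ± 1.30 TPM. Mnt (ENSMUSG00000000282, chromosome 11, 74830920 to 74845725), a broadly expressed antagonist of Myc, had 1493 reads and 29.5 TPM in A and 2040 reads and 27.7 TPM in B, or 28.6 ± 1.30 TPM. They lay at the 80.2nd and 73.8th percentiles of protein-coding genes.

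The Mxd genes, which are mostly known from cells that leave the cell cycle and differentiate, ran from intermediate to low. Mxi1 (ENSMUSG00000025025, chromosome 19, 53310518 to 53375810) led them with 1825 reads and 24.5 TPM in A and 2621 reads and 24.1 TPM in B, or 24.3 ± 0.247 TPM. Mxd3 (ENSMUSG00000021485, chromosome 13, 55325168 to 55329823), the member reported in dividing cells in S phase, had 252 reads and 9.74 TPM in A and 285 reads and 7.56 TPM in B, or 8.65 ± 1.54 TPM. Mxi1 stood at the 70.7th percentile and Mxd3 at the 51.7th, near the middle of protein-coding genes.

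Mxd1 and Mxd4 were the lowest network genes. Mxd1 (ENSMUSG00000001156, chromosome 6, 86647042 to 86669161) had 205 reads and 2.65 TPM in A and 261 reads and 2.32 TPM in B, or 2.49 ± 0.237 TPM. Mxd4 (ENSMUSG00000037235, chromosome 5, 34173883 to 34187720) had 192 reads and 2.07 TPM in A and 350 reads and 2.59 TPM in B, or 2.33 ± 0.368 TPM. Mxd1 was the higher of this pair in A and Mxd4 in B, so their ranges overlap. Both lay below the median of protein-coding genes with a read, 7.77 TPM, at the 36.3rd and 35.7th percentiles.

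**Figure D2:**
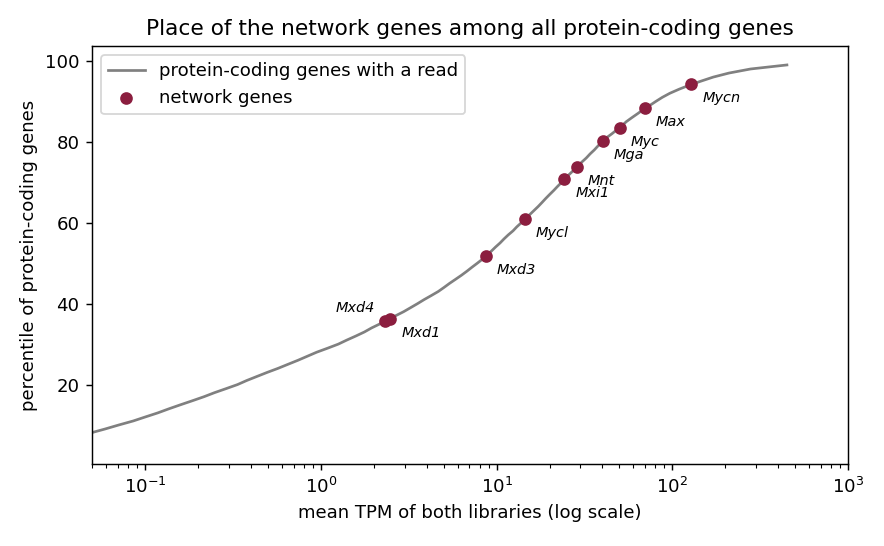
Mean TPM of both libraries (log axis) against the percentile among 17124 protein-coding genes with a read, shown as a grey line from the 5th to the 99th percentile, with the network genes as red points. Mycn lies at the 94.2nd percentile, while Mxd1 and Mxd4 lie at the 36.3rd and 35.7th.

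The order of the levels was therefore Mycn, Max, Myc, Mga, Mnt, Mxi1, Mycl, Mxd3, Mxd1 and Mxd4. Of the 9 neighbouring pairs, 8 were separate, in that their 95% Poisson intervals did not overlap in either library. Mycn was 1.84-fold above Max, Max 1.39-fold above Myc, and Myc 1.24-fold above Mga. The widest step was that from Mxd3 to Mxd1, at 3.48-fold. Mxd1 and Mxd4 did not differ beyond their spread. Mnt stood 1.18-fold above Mxi1, but this pair changed places when the longest transcript was taken as length (23.4 TPM for Mnt and 26.7 for Mxi1), as did Mxd1 and Mxd4. Poisson intervals cover counting error only and leave out the choice of transcript length.

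The make-up of the partner RNA was much the same in both libraries. Myc, Mycn and Mycl together held 64.7% of the summed TPM of the 9 Max partners in A and 64.1% in B. Mga held 12.9% and 14.0%, Mnt 9.67% and 9.43%, and the 4 genes Mxi1, Mxd1, Mxd3 and Mxd4 together 12.7% and 12.5%. Taken as reads, with no correction for length, the share of Mga was 37.7% in A and 39.95% in B and that of the Myc paralogs 39.6% and 38.0%. Mga has the largest exon sum of the network.

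**Figure D3:**
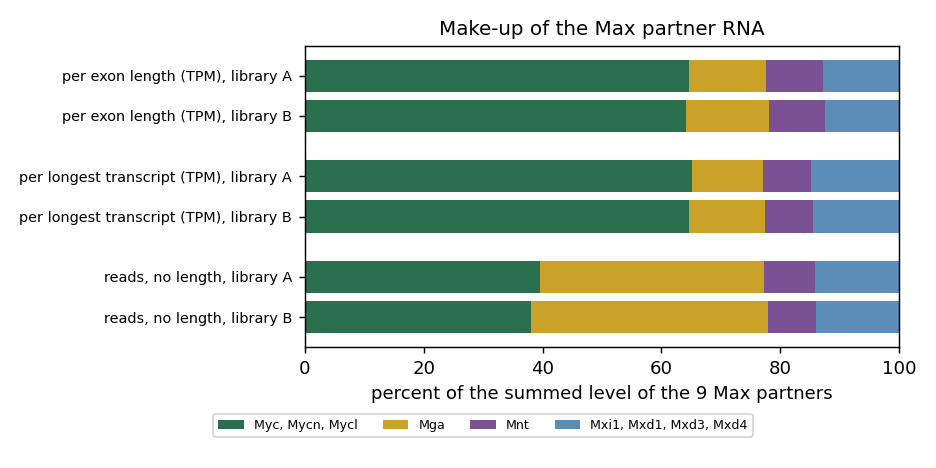
Share of the summed level of the 9 Max partners held by the Myc paralogs (green), Mga (yellow), Mnt (purple) and the 4 Mxd genes (blue), in percent, for each library and 3 ways of treating gene length. The Myc paralogs hold 64.7% in A and 64.1% in B per exon length, and 39.6% and 38.0% as reads.

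The libraries were then compared gene by gene, to see whether a network gene differed between them beyond counting error. Mga was the network gene that did. It had 225 CPM in A and 238 CPM in B, which gives a log2 ratio (B over A) of 0.084 (95% interval 0.039 to 0.13, adjusted p = 0.0172 in a two-sided exact binomial test with Benjamini-Hochberg adjustment over 18198 genes). This is 1 of 10 network genes, or 1 higher in B, against a background of 2.29% of all genes tested that passed an adjusted p of 0.05 and 1.30% that passed and were higher in B. The test compares the reads of these libraries and holds no estimate of the spread between cultures. The ratio of B over A followed GC content across genes, and the longest Mga transcript has 42.2% GC against a median of 50.01% over the genes tested. With that trend removed the Mga log2 ratio was 0.049 and the exact binomial adjusted p 0.504, so the call was lost, where 0.791% of all genes tested were called. It was also lost when edgeR's exact test was run with a coefficient of variation set to 0.1 (adjusted p = 1.0), a test that called 0.0055% of all genes.

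The other 9 network genes did not pass the adjusted test. Mycn had 162 CPM in A against 155 in B, with a log2 ratio of -0.072 (95% interval -0.13 to -0.017). Mycl had 23.3 CPM in A against 20.3 in B, with a log2 ratio of -0.20 (-0.34 to -0.049). Mxd3 had 8.59 CPM in A against 6.75 in B, with a log2 ratio of -0.35 (-0.60 to -0.097), the largest in size of the network. Mxd4 went the other way, with 6.54 CPM in A and 8.29 in B and a log2 ratio of 0.34 (0.083 to 0.60). For these 4 genes the 95% interval leaves out 0 before adjustment, while their exact binomial adjusted p lay between 0.132 and 0.1697. With Mga that makes 5 of 10 network genes at an unadjusted p under 0.05, where 14.7% of the genes with at least 100 reads were. Both shares are from before the GC trend was removed. They also differ in depth: 7 of the 10 network genes had at least 1000 reads, and the exact test picks out smaller differences in genes with more reads. No share was counted at that depth. With it removed the log2 ratios were smaller in size, at -0.033 for Mycn, -0.16 for Mycl, -0.31 for Mxd3 and 0.33 for Mxd4. The share at an unadjusted p under 0.05 was not counted with the trend removed.

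Myc itself had 50.3 CPM in A against 51.6 in B, with a log2 ratio of 0.037 (95% interval -0.058 to 0.13). Max had 92.1 CPM in A against 95.7 in B, with a log2 ratio of 0.055 (-0.016 to 0.13). Mnt and Mxd1 were lower in B by value, with log2 ratios of -0.075 and -0.18, and Mxi1 stood at -0.0029, with intervals that include 0. The median log2 ratio of the network was -0.037, beside -0.00084 over all genes tested. Its median size without the sign was 0.079, beside 0.080 over all genes tested. For the 7 network genes whose summed reads reached 1000 it was 0.072, beside 0.043 over the 8894 genes of that depth. These medians are from before the GC trend was removed, and none was taken with it removed. With it removed the log2 ratios of the 7 were -0.033 (Mycn), 0.046 (Max), 0.054 (Myc), 0.049 (Mga), -0.014 (Mnt), -0.023 (Mxi1) and -0.16 (Mycl).

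**Figure D4:**
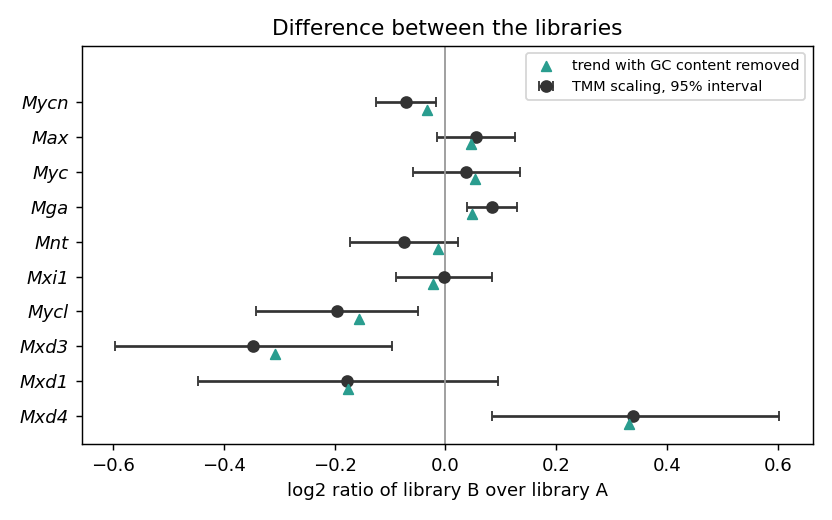
Log2 ratio of library B over library A for each network gene, with the 95% exact binomial interval (black), and the ratio after removal of the trend with GC content (green triangles). Mga, at 0.084, passed the adjusted test before the trend was removed, and its ratio was 0.049 after removal.

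Fibroblast markers, which feeder cells would bring, also differed between the libraries. Of the 9 listed, 7 had enough reads to be tested, and 4 were lower in B by the exact binomial test with adjustment over all genes: Dcn, Col3a1, Col1a2 and Postn, a proteoglycan, 2 collagens and a matrix protein. Over all genes tested 0.989% were called lower in B. Col3a1 had 47 reads in A and 14 in B. The log2 ratios of these 4 genes ran from -2.24 to -1.60, and from -2.22 to -1.63 with the GC trend removed. Most of these calls were lost in edgeR's exact test with a coefficient of variation set to 0.1. Reads of the 4 genes were few, from 8 (Postn in B) to 51 (Dcn in A). The list summed to 61.5 CPM in A and 56.2 CPM in B, most of it Thy1, which had 1260 and 1843 reads. Pdgfrb, with 303 and 382 reads, and Col1a1, with 77 and 80, did not pass the test. The part of such cells in the levels of the network genes was not tested. In bulk RNA, fewer cells with a transcript and less of it per cell cannot be told apart.

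Overlapping genes could add reads to some network genes, since it is not known whether strand was used in the counting. Overlaps were sought between whole gene spans, introns included, so shared bases need not lie in counted exons. Mxd3 shares 105 bases with Prelid1 on the opposite strand, with 5216 reads in A and 7378 in B, far more than the 252 and 285 of Mxd3. Those are reads of Prelid1 as a whole, and how many fall in the shared bases was not counted. Mxi1 overlaps Gm10197, also on the opposite strand, with 0 reads in A and 3 in B. Further annotated genes that lie within Max (Gm47218), Mxi1 (AC133451.2), Mxd1 (Gm44292) and Mxd4 (Gm42846) had no row in the count files. Gm47218 and Gm44292 lie on the same strand as Max and Mxd1, so counting by strand would not separate their reads.

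The wider pathway was present as well, and lists of its genes are described by counts and medians, beside a median of 9.47 TPM over all genes tested. Counts of listed genes at 1 CPM stand beside the 72.8% of protein-coding genes with a read that reached it in both libraries. The parallel network around Mlx, whose protein pairs with Mlxip and Mlxipl and also with some Mxd proteins and Mnt, had Mlx at 68.8 ± 0.847 TPM, close to Max. Mlxip stood at 13.9 ± 0.994 TPM and the Myc-like gene Bmyc at 16.8 ± 1.59 TPM. Mlxipl, a glucose-responsive factor also known as ChREBP, had 578 reads in A and 672 in B and was lower in B, with a log2 ratio of -0.31 (exact binomial adjusted p = 0.0138). With the GC trend removed its adjusted p was 0.105 in the same exact test. The Myc-like gene Mycs had 0 reads in both libraries, which allows up to 0.102 CPM in A and up to 0.0711 CPM in B, where 3 counts would lie.

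RNA of the corepressor that Mxd proteins and Mnt recruit was detected for every gene listed. All 16 genes of the Sin3 and histone deacetylase complex reached 1 CPM in A and in B, and their median was 38.8 TPM. The histone-binding subunits Rbbp7 and Rbbp4 led at 467 ± 1.14 and 155 ± 1.89 TPM, and the scaffold Sin3a had 125 ± 1.54 TPM. None of the 16 was called between the libraries by the exact binomial test with adjustment, where 2.29% of all genes tested were. At that share a list of this length may hold no call.

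The partners of Mga and Max in PRC1.6 were expressed too. All 10 reached 1 CPM, with a median of 50.8 TPM, led by the WD-repeat protein Wdr5 (245 ± 5.38 TPM), the chromatin reader L3mbtl2 (110.0 ± 3.46 TPM) and the ubiquitin ligase Rnf2 (82.9 ± 0.306 TPM). Meiosis and germline genes, the class that this complex is reported to silence, were measurable. All 12 listed reached 1 CPM in both libraries, where 72.8% of protein-coding genes with a read did. Their median of 24.8 TPM was near that of the network, 26.5 TPM. Whether the complex silences these genes in these cells was not tested. They ranged from 1.89 to 98.0 TPM, beside a median of 7.77 TPM over protein-coding genes with a read. Sycp3, a component of the synaptonemal complex, had 98.0 ± 5.34 TPM, Mael, a factor of the piRNA pathway, 55.5 ± 1.11 TPM, and Stra8, a regulator of meiotic entry, 54.4 ± 2.005 TPM. Neither list had a gene called between the libraries, where 2.29% of all genes tested were, a share at which lists this short may hold no call.

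Cofactors of Myc and genes that set the life of the Myc protein lay at similar levels. All 15 cofactors reached 1 CPM, with a median of 38.9 TPM, led by Ruvbl2 (269 ± 4.66 TPM), a helicase-like subunit of chromatin complexes, Actl6a (173 ± 0.115 TPM) and the acetyltransferase Kat2a (125 ± 4.13 TPM). All 10 turnover genes did so, with a median of 40.0 TPM. Aurka, a mitotic kinase that shields the Mycn protein from degradation, had 147 ± 1.53 TPM, the deubiquitinase Usp28 had 146 ± 1.28 TPM and the ubiquitin ligase Huwe1 74.2 ± 0.701 TPM. In both lists no gene was called between the libraries, beside 2.29% of all genes tested, and lists this short may hold none at that share.

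Reported targets of Myc were the most abundant of the pathway lists. All 20 reached 1 CPM in A and in B, and their median was 189 TPM, with a range from 0.792 to 2436 TPM. Npm1 and Ncl, nucleolar proteins of ribosome assembly, had 2436 ± 68.3 and 858 ± 33.0 TPM, the glycolytic enzyme Ldha 1639 ± 14.6 TPM and the mitochondrial chaperone Hspd1 1184 ± 22.8 TPM. Between the libraries 6 of the 20 were higher in B (Npm1, Hspd1, Ncl, Eif4a1, Tfrc and Fbl) and 2 were lower (Srm and Cad), beside 1.30% and 0.989% of all genes tested. Fbl, a nucleolar methyltransferase of ribosomal RNA, had the largest log2 ratio of these, 0.22, with 83.7 CPM in A and 97.5 CPM in B (exact binomial adjusted p = 6.3e-07), and Ncl had 0.097. With the GC trend removed 4 of the 20 were called, namely Npm1, Hspd1, Ncl and Fbl, and with the coefficient of variation set to 0.1 in edgeR's exact test none was. Of the 8 genes, Fbl had the fewest reads in A, 2456, and Ncl the most, 92889, while the network genes had 192 to 6598. The exact test calls smaller differences in genes with more reads. The shares over all genes tested cover genes with at least 10 reads, and none was counted at the depth of these targets.

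**Figure D5:**
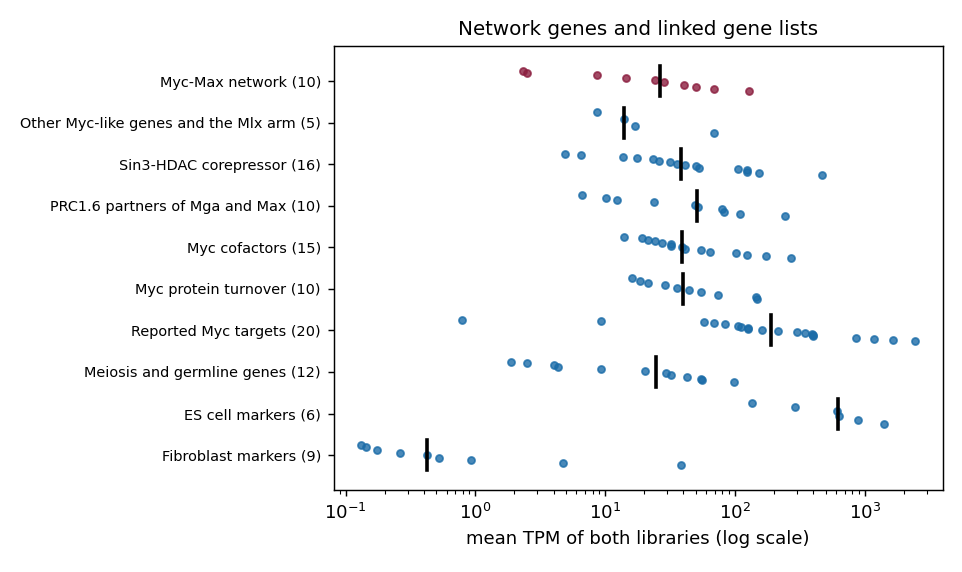
Mean TPM of both libraries (log axis) of each gene in the network (red) and in 9 further lists (blue), with the number of genes in brackets and the list median as a black bar. The network median is 26.5 TPM, that of the reported Myc targets 189 TPM, and Mycs, at 0, is left off the log axis.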

How the data were processed

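Poly-A RNA of 2 libraries of 1 group was measured, made with Trizol and the Illumina TruSeq kit by a reverse-stranded protocol, per the labels' protocols. Each deposited file gives 1 library's unnormalized counts of reads by Ensembl gene ID, per the file headers. The tools named are STAR 2.4.2a and featureCounts 1.4.5-p1, with the build mm10, per the submitters' processing notes. The release of the annotation, the strand setting and the handling of reads with several matches are not given in these sources.

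Symbols, positions and lengths came from GENCODE M21 (GRCm38, the build of mm10), which matched 97.5% of 43629 gene IDs. Counts were scaled by TMM on genes with at least 10 reads (edgeR 4.0.16, R 4.3.3) to CPM. TPM used the union of exons. For genes with 10 or more reads in A and B together, the reads of B were tested with a two-sided exact binomial test (scipy 1.17.1), adjusted by Benjamini-Hochberg, at a threshold of 0.05, since 1 library a side leaves edgeR's quasi-likelihood test no residual degrees of freedom. Log2 ratios add 0.5 reads. Simulated counts for this comparison were Poisson draws, with counting error only and neither spread between cultures nor a GC trend. In them 2-fold changes were recovered in 98.5% of changed genes with at least 100 reads, 1.5-fold changes in 89.5% and 1.25-fold changes in 65.5%. With no change simulated, 0 of 18199 genes were called. Such counts meet the assumption of the exact test, so this outcome says nothing of false calls in the real libraries.

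Members and lists were chosen with earlier results of these data known; the seeds, the E-box and their windows were chosen after the files were seen. Named are all members and, of each list, the 3 genes with the highest TPM, those called and those with 0 reads. All ES cell markers and overlapping genes are named too. Alternatives were total counts, DESeq2 1.42.0 size factors, other filters and thresholds, longest transcripts, removal of the GC trend (20 bins), edgeR's exact test with a set coefficient of variation of 0.1, and each library alone. Intervals and floors cover counting error only.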

Additional observations from a re-analysis of the deposited data

How the results depend on the processing

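All 10 network genes stayed at or above the detection level under total counts, DESeq2 size factors, levels of 0.5 and 5 CPM, 1 TPM and in each library alone. The count of network genes called between the libraries, 1, held under both other scalings and filters of 1 and 50 reads. It was 0 with the GC trend removed and 0 in edgeR's exact test at a coefficient of variation set to 0.1. The ratio of Myc to Mycn, 0.390, was 0.368 with the longest transcript and 0.322 from reads, and 0.375 to 0.405 in each library alone. The share of the Myc paralogs among the Max partners, 64.4%, was 64.9% with the longest transcript and 38.8% from reads, with 64.1% to 64.7% in each library alone. The ratio of Max to its partners, 0.233, was 0.360 with the longest transcript and 0.157 from reads, and 0.225 to 0.240 in each library alone; these shifts follow from the lengths used. The sign of the log2 ratio turned under another setting for 1 network gene, Mxi1. Of the 8 reported Myc targets called, 4 were called with the GC trend removed and 0 with that set variation, settings applied to that list after its values were seen. Over all genes 237 were higher in B and 180 lower, and with total counts 180 and 242. No paired analysis was possible because the libraries form a single group.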
